A study of Mus musculus with 22 samples.

Results

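Thyroid hormone has to cross the plasma membrane, be activated or destroyed inside the fibre and be held in the cytosol before it meets its receptors. The 6 genes described here serve those steps in mouse soleus, a postural muscle of slow and fast fibres: the deiodinases Dio2 and Dio3, the transporters Slc16a10, Slc7a5 and Slc7a8, and the cytosolic T3-binding protein Crym. They were chosen by gene symbol, as 6 of the 55487 rows of the count table. All 6 passed the filter on low counts, Dio3 only through libraries of mice given T3. The study measured poly-A RNA in 22 libraries of soleus from male mice, in 4 groups. These were WT given vehicle (5 libraries), WT given T3 (6), TRa1 KO given vehicle (4) and TRa1 KO given T3 (7). T3 is the active thyroid hormone and TRa1 is the thyroid hormone receptor made from Thra. The labels give no dose, duration, age or strain, and do not say whether the knockout is confined to muscle. Nor do they tie each library to a separate animal, and the p-values therefore speak of the spread between libraries, which may be partly technical. The study's title concerns the part of this receptor in thyroid thermogenesis, and the comparisons below ask how the local handling of the hormone differed with T3 and with genotype.

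Deiodinases are selenoenzymes that remove iodine from thyroid hormones. The enzyme encoded by Dio2 removes an outer-ring iodine and turns the prohormone T4 into T3, whereas the Dio3 enzyme removes an inner-ring iodine and inactivates both T4 and T3. Slc16a10 is a monocarboxylate family carrier of aromatic amino acids and thyroid hormones. Slc7a5 and Slc7a8 are the light chains LAT1 and LAT2 of exchangers of large neutral amino acids that also carry thyroid hormones, and both need the heavy chain Slc3a2 to reach the membrane. Crym encodes mu-crystallin, which binds T3 with NADPH in the cytosol.

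Both deiodinase transcripts carry an in-frame TGA that is read as selenocysteine, the residue of the active centre, and this stretch is shown because it is what the pair shares. In the GENCODE M21 annotation of GRCm38 it is codon 130 of 266 in Dio2, at chr12:90729823-90729825 on the minus strand, and codon 170 of 304 in Dio3, at chr12:110279739-110279741 on the plus strand. A further TGA of Dio2, codon 263, is marked in the same way. The windows below cover chr12:90729787-90729861 and chr12:110279703-110279777 in exons, with the TGA in capitals and 36 bases on each side, and 46 of their 75 bases (61.3%) are identical.
Dio2: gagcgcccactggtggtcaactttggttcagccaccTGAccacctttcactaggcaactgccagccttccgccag
Dio3: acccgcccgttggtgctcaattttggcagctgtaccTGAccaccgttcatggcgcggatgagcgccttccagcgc

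Levels are given in CPM, the count of a gene scaled by the TMM-adjusted size of its library. Differences are log2 fold changes ± standard error, and p-values are from edgeR's quasi-likelihood test fitted to all 15082 tested genes. Adjustment over these genes was by Benjamini-Hochberg, and a gene was called at an adjusted p below 0.05. The test itself gives no standard error. It was derived as the absolute log2 fold change divided by the square root of the F statistic. The intervals of the fitted differences were built symmetrically from it and are approximate, most of all at the low counts of Dio3. Total counts ranged from 14542548 to 75766782 per library, and the 6 genes together had 383 to 2049 counts in a library. Muscle fibre markers were present in every library (summed level 38462 to 75548 CPM) and 0 of 4 neuronal control markers passed the filter. Thra, counted over all its transcripts, was at 70.8 to 90.6 CPM in WT vehicle and 44.2 to 53.6 CPM in KO vehicle, without overlap, but this difference was not called (adjusted p = 0.0979, edgeR). Under T3 the genotypes overlapped in Thra, at 19.3 to 58.9 CPM in WT and 21.2 to 39.8 CPM in KO (adjusted p = 0.271, edgeR). The level of Thra therefore does not separate the genotype labels of the T3 libraries. Thra was called lower with T3 in WT (-0.86 ± 0.20, adjusted p = 0.0160, edgeR). On the first 2 principal components 5 T3 libraries lay apart, of which 3 were WT T3 (replicates 1, 3 and 5) and 2 were KO T3 (replicates 2 and 3). Results are given without them where that changes a value.

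Of the 6 genes, 1 was called for T3 in WT, where 3.31% of all tested genes were called, and 2 were called for T3 in KO, where the share was 2.72%. For KO against WT, 1 was called under vehicle, against 3.08% of all genes, and 0 were called under T3, against 5.57%. No gene of the 6 was called for the difference between the responses to T3, for which 0.00663% of genes, that is 1 gene, passed. At an unadjusted p below 0.05 the members numbered 2, 3, 2, 1 and 1 in the same order, and 2590, 2057, 2131, 2647 and 371 of all genes did so. The calls were Dio3, higher with T3 in each genotype, and Slc7a8, lower in KO under vehicle and higher with T3 in KO. The ranges of 2 groups were separate for Dio3 in each T3 comparison and for Slc7a8 with T3 in KO, that is for 1 member in WT and 2 in KO, where 3.80% and 4.66% of all genes had separate ranges. For KO against WT the members with separate ranges numbered 0 under vehicle (9.10% of all genes) and 0 under T3 (2.51%). With T3, the members had a median log2 fold change of -0.07 in WT and 0.24 in KO, and for KO against WT it was -0.16 under vehicle and -0.23 under T3; the medians of all genes were 0.01, 0.02, -0.02 and -0.00063. The comparisons share groups pairwise, so that the WT vehicle libraries serve T3 in WT as well as KO under vehicle, and the KO vehicle libraries serve T3 in KO as well.

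**Figure D1:**
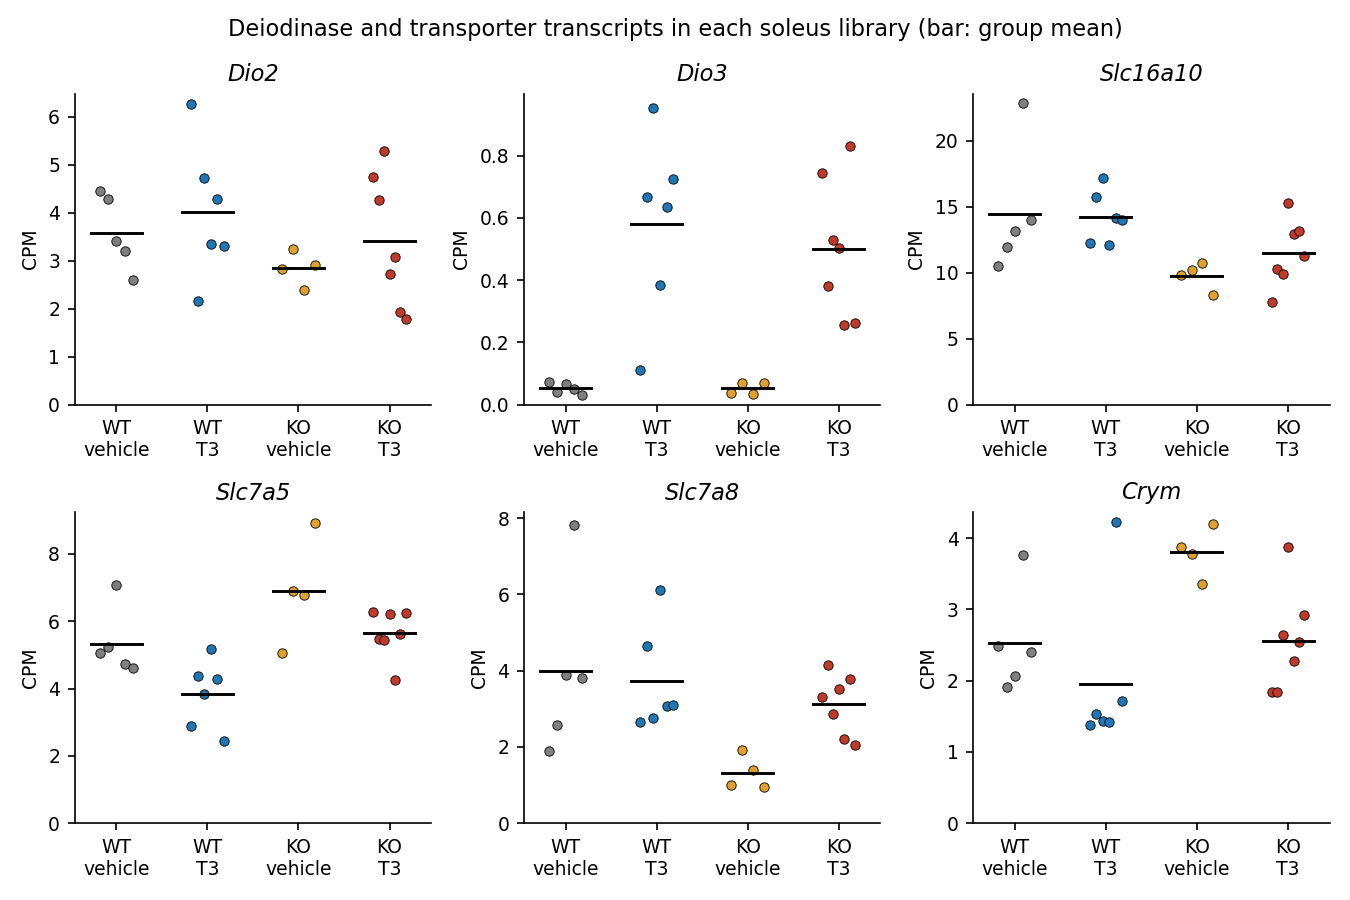
CPM of each gene (linear axis, each panel with its own scale) in the 22 soleus libraries, 1 point per library, with bars at the group means. Dio3 is near 0 in the 9 vehicle libraries and higher in the 13 T3 libraries, and Slc7a8 is lowest in KO vehicle.

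**Figure D2:**
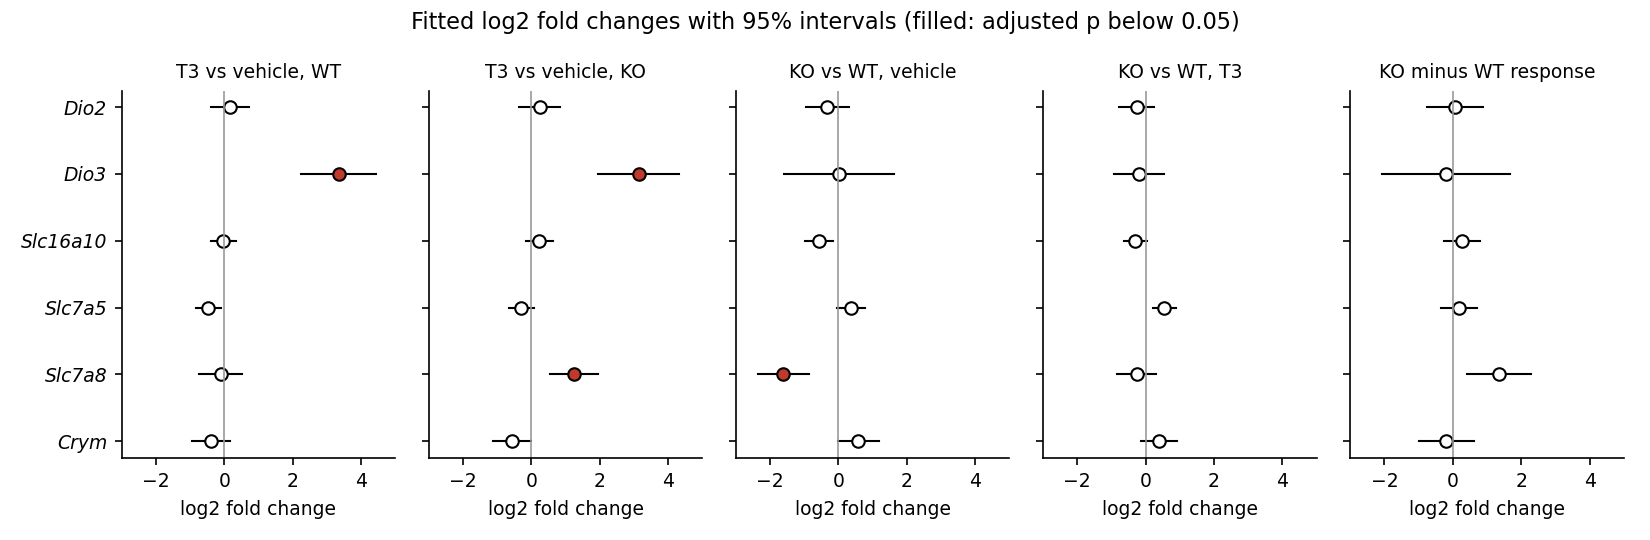
Fitted log2 fold change (points) with 95% interval (lines) of each gene in the 5 comparisons, with filled points for adjusted p below 0.05. The Dio3 intervals for T3 lie well above 0 in both genotypes. Over all 5 comparisons the upper ends of the intervals of the other 5 genes reach at most 2.29, for Slc7a8 in the difference between responses.

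Dio3, the inactivating enzyme, was the member called with T3 in both genotypes. In WT vehicle it was at 0.0743, 0.0408, 0.0678, 0.0499 and 0.0316 CPM, which were 1 or 2 counts in each library. With T3 the WT libraries ran from 0.112 to 0.954 CPM with a median of 0.651, or 4 to 26 counts. Every T3 library of WT thus stood above every vehicle library, with replicate 1 the lowest. In KO vehicle Dio3 was at 0.0366, 0.0706, 0.0357 and 0.0694 CPM, again 1 or 2 counts. The KO T3 libraries ran from 0.257 to 0.830 CPM with a median of 0.502, or 10 to 42 counts. Here too the groups did not overlap. At 1 or 2 counts in each vehicle library, Dio3 passed the filter on low counts only through its T3 libraries. It was therefore kept for testing by the same libraries in which it was then called higher.

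The Dio3 rise was 3.34 ± 0.53 on the log2 scale in WT (10.2-fold, 95% interval 4.74 to 21.8, adjusted p = 0.000505, edgeR) and was seen in 6 of 6 T3 libraries. In KO it was 3.14 ± 0.58 (8.79-fold, 95% interval 3.84 to 20.1, adjusted p = 0.00285, edgeR), in 7 of 7 T3 libraries. From summed counts, 8 in WT vehicle against 98 in WT T3, the ratio was 10.4 with an exact 95% interval of 5.05 to 24.7, and 6 against 140 in KO gave 8.90 (3.99 to 24.7). Those 2 intervals cover counting error only. The KO response minus the WT response was -0.21 ± 0.91, with a 95% interval from -2.08 to 1.66, so that at this depth responses differing by a factor of 2 or more either way lie within the interval. KO against WT differed by 0.02 ± 0.78 under vehicle and by -0.19 ± 0.35 under T3 (adjusted p = 0.995 and 0.851, edgeR). Without the 5 T3 libraries that lay apart the rises were 3.38 in WT and 3.15 in KO, with adjusted p of 0.00121 and 0.00150 by edgeR.

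Dio2, the activating enzyme, showed no called difference. It was at 4.46, 4.28, 3.42, 3.20 and 2.59 CPM in WT vehicle and ran from 2.17 to 6.26 with a median of 3.81 in WT T3. In KO vehicle it was at 2.82, 3.25, 2.39 and 2.92 CPM, and in KO T3 it ran from 1.78 to 5.28 with a median of 3.09. All 4 groups overlapped, and the T3 groups spread most: the SD was 1.42 CPM in WT T3 and 1.38 in KO T3 against 0.776 and 0.354 in the vehicle groups. The T3 difference was 0.17 ± 0.27 in WT (95% interval -0.39 to 0.73) and 0.24 ± 0.29 in KO (-0.35 to 0.83), with adjusted p of 0.803 and 0.826 by edgeR. KO against WT was -0.33 ± 0.31 under vehicle and -0.26 ± 0.25 under T3. Of the 13 T3 libraries the 5 that lay apart included WT T3 replicate 1, the highest for Dio2, and KO T3 replicates 2 and 3, at 4.28 and 5.28 CPM. Without the 5, the T3 differences turned to -0.29 in WT and -0.04 in KO, again not called. Dio2 shares 100 of its 5815 exonic bases with the antisense gene Gm26512, and since the strand setting of the counting is not given in the sources used here, counts from that stretch cannot be assigned to either.

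Set against each other per transcript length, the 2 deiodinase transcripts stood closer to each other in most T3 libraries. The ratio of Dio2 to Dio3 counts per kb had a median of 22.3 in WT vehicle (17.6 to 36.7) and 2.04 in WT T3 (1.14 to 19.5). In KO vehicle it was 19.7 (14.7 to 26.9), and in KO T3 2.36 (0.815 to 4.19). The KO groups did not overlap, whereas WT T3 replicate 1, at 19.5, lay within the range of WT vehicle. That library had the fewest Dio3 counts of the T3 groups and the highest Dio2 level. The ratio rests on 1 or 2 Dio3 counts in each vehicle library and is given as a description with no test.

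**Figure D3:**
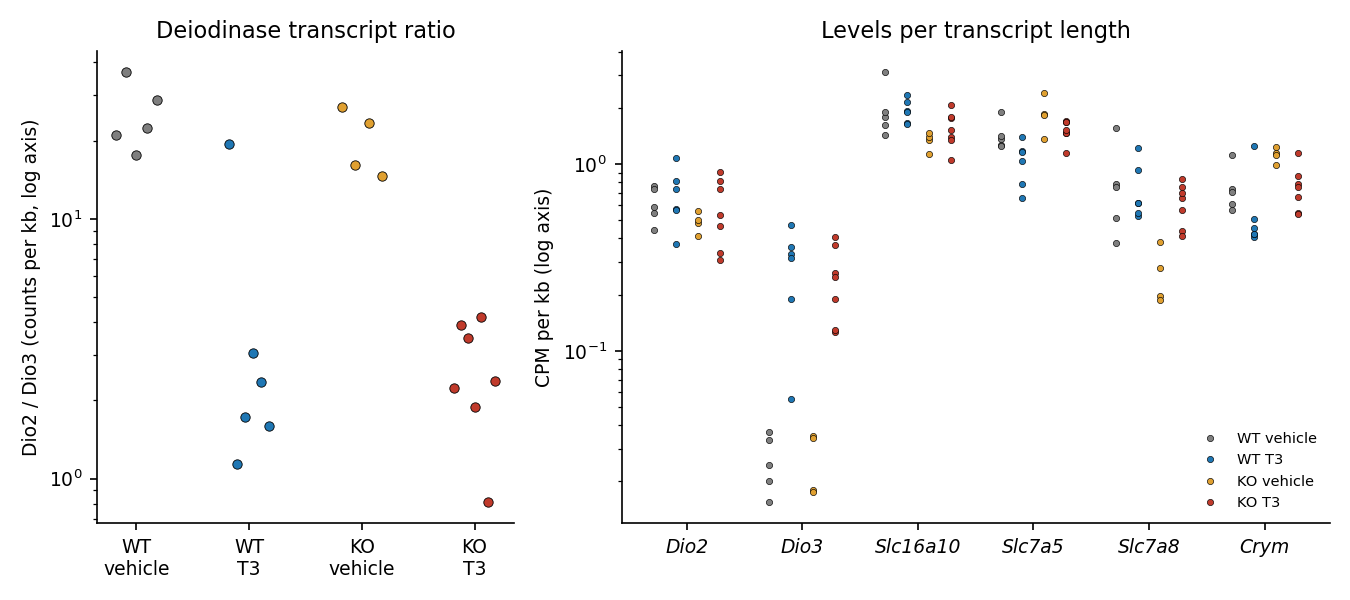
Left, ratio of Dio2 to Dio3 counts per kb of transcript in each library (log axis); right, CPM per kb of each gene in each library (log axis), coloured by group. T3 libraries fall to a median ratio near 2 in both genotypes, and 1 WT T3 library stays at 19.5.

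On the same scale of CPM per kb over all 22 libraries, Slc16a10 was the most abundant of the 6 with a mean of 1.71. Slc7a5 followed at 1.43, then Crym at 0.771, Slc7a8 at 0.630, Dio2 at 0.604 and Dio3 at 0.167. Neighbours from Crym to Dio2 differed by less than their SD over libraries, which were 0.289, 0.320 and 0.197, and so did Slc16a10 and Slc7a5 (0.448 and 0.390). The order was not the same in each group: in KO vehicle Slc7a5 (1.86) stood above Slc16a10 (1.33) and Slc7a8 (0.261) below Dio2 (0.489). In WT T3 Crym (0.575) stood below Slc7a8 (0.743) and Dio2 (0.691). Dio3 was the lowest in all 4 groups. Over all libraries Dio3 stood at the percentile 10.7 of all tested genes, and Slc16a10 at 45.8. The fitted biological coefficient of variation was 0.428 for Dio3, 0.343 for Slc7a8, 0.306 for Dio2, 0.297 for Crym, 0.209 for Slc16a10 and 0.199 for Slc7a5, and the median of all genes was 0.209. Slc7a8 and the deiodinases were measured with wider intervals than the other carriers. For Dio3, counting error alone was 79.1% of the mean count in WT vehicle and 81.6% in KO vehicle.

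Slc7a8, the light chain LAT2, was the carrier that differed. In WT vehicle it was at 1.89, 2.57, 3.90, 7.81 and 3.79 CPM, and in KO vehicle at 0.989, 1.91, 1.39 and 0.937. Replicate 4 was the highest WT library, and the groups overlapped only in that the highest KO library (1.907) was just above the lowest WT library (1.894). The KO level was lower by a log2 fold change of -1.62 ± 0.36 (0.325-fold, 95% interval 0.194 to 0.545, adjusted p = 0.0129, edgeR). Without WT vehicle replicate 4 it was -1.21 with an adjusted p of 0.0477, and without KO vehicle replicate 4 it was -1.46 and no longer called, with an adjusted p of 0.0647, both by edgeR.

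With T3 the KO libraries ran from 2.06 to 4.14 CPM for Slc7a8 with a median of 3.31, all above the 4 KO vehicle libraries. That rise was 1.25 ± 0.34 on the log2 scale (2.38-fold, 95% interval 1.46 to 3.88, adjusted p = 0.0496, edgeR), in 7 of 7 T3 libraries. This call lay at the threshold: it held in 14 of 32 alternative analyses, with adjusted p from 0.00852 to 0.186. When single libraries were left out it held in 6 of 22 fits, those without WT vehicle replicate 1 or 4, WT T3 replicate 4 or 5, or KO T3 replicate 5 or 7. Without the 5 T3 libraries that lay apart the adjusted p was 0.0790 by edgeR, for a rise of 1.15. In WT T3 the gene ran from 2.64 to 6.11 CPM with a median of 3.09, within the range of WT vehicle, a difference of -0.11 ± 0.30 (adjusted p = 0.898, edgeR). The 2 T3 groups overlapped and differed by -0.26 ± 0.28. The KO response exceeded the WT response by 1.36 ± 0.45, with an unadjusted p of 0.00629 and an adjusted p of 1.00 by edgeR over all genes, so the difference between genotypes in the response to T3 was not called. Both Slc7a8 calls rest on the same 4 KO vehicle libraries.

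The levels of fibre-type marker transcripts differed with genotype, and their part in the Slc7a8 result was not tested. Of the 9 fibre markers, the slow troponins Tnni1 and Tnnt1 and the slow myosin Myh7 were called higher in KO under each treatment, and the fast myosin Myh2 and the fast troponin Tnni2 were called lower. Pvalb, a calcium buffer of fast fibres, was not called (adjusted p = 0.324 under vehicle and 0.658 under T3, edgeR). The summed level of the fast genes Tnni2 and Pvalb, a split of the marker list made after its values were seen, was 3202 to 7416 CPM in WT vehicle and 999 to 2791 in KO vehicle. Under T3 the medians of that sum were 4081 CPM in WT and 1486 in KO, and the Slc7a8 medians were 3.09 and 3.31 CPM. WT vehicle replicate 4, with the most Slc7a8, also had the highest fast sum of its group. WT T3 replicate 5 had the highest fast sum of all libraries, 9727 CPM, but only 3.08 CPM of Slc7a8. Pearson's r between log2 levels of Slc7a8 and the fast sum was 0.51 over the 22 libraries and 0.30 with the group means removed. In bulk muscle, fewer fibres of a kind and less RNA per fibre cannot be told apart.

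**Figure D4:**
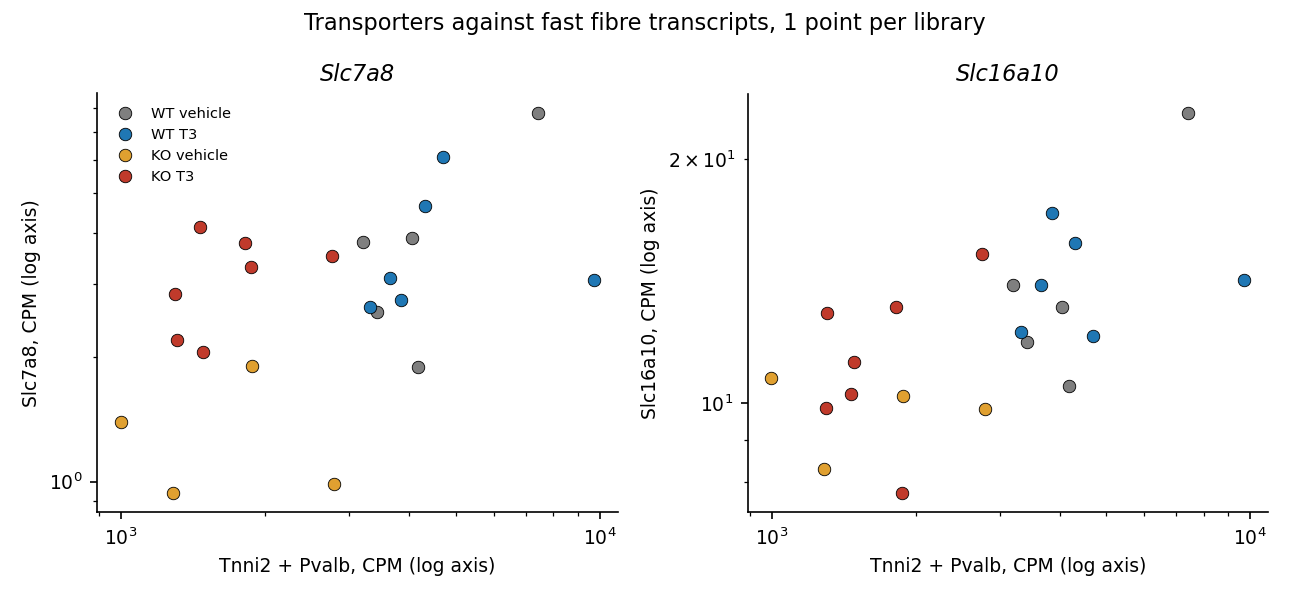
CPM of Slc7a8 (left) and Slc16a10 (right) against the summed CPM of the fast fibre genes Tnni2 and Pvalb, 1 point per library, both axes logarithmic. KO libraries lie to the left at 999 to 2791 CPM, and within KO the T3 libraries lie above the vehicle libraries for Slc7a8.

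Slc16a10, the aromatic amino acid and thyroid hormone carrier, was at 10.5, 11.9, 13.1, 22.8 and 14.0 CPM in WT vehicle. KO vehicle had 9.85, 10.2, 10.7 and 8.30 CPM. Only the highest KO library reached above the lowest WT library, and WT vehicle replicate 4 was far above its group. The KO difference was -0.57 ± 0.20 (unadjusted p = 0.00890, adjusted p = 0.146, edgeR) and was not called. Leaving out WT vehicle replicate 4 brought it to -0.34. In WT T3 the range was 12.1 to 17.2 CPM with a median of 14.1 and in KO T3 7.75 to 15.3 with a median of 11.2, so these overlapped with each other and with the vehicle groups. The T3 difference was -0.03 ± 0.18 in WT and 0.24 ± 0.19 in KO, and KO against WT under T3 was -0.31 ± 0.16 (adjusted p = 0.346, edgeR).

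Slc7a5, the light chain LAT1, had higher mean levels in KO than in WT, and no difference was called. It was at 5.05, 5.22, 7.08, 4.72 and 4.62 CPM in WT vehicle and at 5.06, 6.89, 6.78 and 8.92 in KO vehicle. With T3 it ran from 2.44 to 5.17 CPM in WT (median 4.07) and from 4.26 to 6.28 in KO (median 5.63). The 2 T3 groups overlapped through KO T3 replicate 5, at 4.26 CPM, which lay apart from the other 6 KO libraries. KO was 0.55 ± 0.17 above WT under T3 (adjusted p = 0.0526, edgeR) and 0.37 ± 0.20 under vehicle (adjusted p = 0.410). The difference under T3 passed the threshold in 11 of 32 alternative analyses, among them DESeq2 with an adjusted p of 0.0205 and 6 of the 22 fits that left out a library. Those were the fits without WT vehicle replicate 3, WT T3 replicate 4 or 5, KO vehicle replicate 1 or 4, or KO T3 replicate 5. T3 against vehicle gave -0.46 ± 0.18 in WT (adjusted p = 0.170) and -0.29 ± 0.18 in KO (adjusted p = 0.539), neither called by edgeR. The shared heavy chain Slc3a2 had group means from 22.5 to 24.8 CPM and log2 differences from -0.03 to 0.12, none called.

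Crym, which binds T3 in the cytosol, was at 2.49, 1.92, 2.07, 3.77 and 2.40 CPM in WT vehicle. In WT T3 5 of 6 libraries lay between 1.38 and 1.72 CPM, and replicate 5 was at 4.23. KO vehicle had 3.88, 3.78, 3.35 and 4.20 CPM, and KO T3 ran from 1.84 to 3.87 with a median of 2.55. Each pair of groups compared overlapped, through WT vehicle replicate 4, WT T3 replicate 5 and KO T3 replicate 4. The T3 difference was -0.38 ± 0.27 in WT and -0.57 ± 0.27 in KO, and KO against WT was 0.58 ± 0.29 under vehicle and 0.39 ± 0.25 under T3. Adjusted p were 0.505, 0.354, 0.382 and 0.459 by edgeR, so no difference was called. A single library decided part of this. Without WT T3 replicate 5 the T3 difference in WT was -0.76 (adjusted p = 0.0345, edgeR) and the KO difference under T3 was 0.77 (adjusted p = 0.0125). Crym was called in 1 of 32 alternatives for T3 in WT and in 2 of 32 for KO under T3. Without the 5 T3 libraries that lay apart, WT T3 replicate 5 among them, neither difference was called. WT T3 replicate 5 was also the library farthest out on the first principal component. It had the highest summed adipocyte (139 CPM), fibroblast (722) and macrophage (88.3) markers. Its sum of the fast genes Tnni2 and Pvalb, 9727 CPM, was the highest of all libraries. WT vehicle replicate 4 (7416) and KO T3 replicate 4 (2757) had the highest fast sums of their groups. Pearson's r between log2 levels of Crym and that sum was -0.13 over the 22 libraries. With the group means removed it was 0.71. The part of these markers and fast genes in the Crym level was not tested.

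Beyond the members, 3 of 8 further genes of iodothyronine transport passed the filter and 0 were called in any comparison. Their median log2 fold change with T3 was -0.18 in WT and -0.13 in KO, and between genotypes 0.05 under vehicle and 0.10 under T3. Of 9 other enzymes and binders of iodothyronines only the sulfotransferase Sult1a1 was tested, with group means from 17.9 to 20.3 CPM and 0 calls. The hepatic and renal deiodinase Dio1 did not pass the filter, with group means of at most 0.0354 CPM.

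Deiodinases need the machinery that inserts selenocysteine, and all 7 of its listed genes were tested with 0 calls. Secisbp2, which binds the SECIS element of selenoprotein transcripts, had the smallest adjusted p, 0.277 by edgeR, for -0.25 ± 0.12 with T3 in WT. Among 6 genes of the ubiquitin control of the Dio2 protein, the deubiquitinase Usp20 was higher in KO than in WT when both had T3, by 0.56 ± 0.14 (WT 25.8 and KO 38.0 CPM, adjusted p = 0.0165, edgeR). With T3 against vehicle Usp20 was at -0.52 ± 0.15 in WT and -0.51 ± 0.15 in KO, neither called (adjusted p = 0.0600 and 0.0788). The conjugating enzyme Ube2g2 fell by 0.38 ± 0.10 with T3 in KO (from 251 to 193 CPM, adjusted p = 0.0382, edgeR), a call that held in 23 of 32 alternatives. No other gene of that list was called. The list's medians with T3 were -0.22 in WT and -0.16 in KO, and between genotypes 0.16 under vehicle and 0.20 under T3.

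Of 19 other selenoproteins, 1 fell with T3 in WT, 2 rose and 1 fell with T3 in KO, 1 was lower in KO under vehicle and 1 was higher in KO under T3. Beside the shares of all genes given above, such single calls among 19 genes say little about selenoproteins as a set. Selenos, a selenoprotein of the endoplasmic reticulum, was the one that fell in each genotype: from 54.3 to 32.1 CPM in WT (-0.76 ± 0.17, adjusted p = 0.0153, edgeR) and from 75.2 to 44.6 CPM in KO (-0.75 ± 0.18, adjusted p = 0.0212). Txnrd1, the cytosolic thioredoxin reductase, had the same order of group means as Slc7a8: 95.8 CPM in WT vehicle, 68.5 in KO vehicle, 92.6 in WT T3 and 91.8 in KO T3. By medians the 2 T3 groups of Slc7a8 stood the other way, at 3.09 CPM in WT and 3.31 in KO. Txnrd1 was lower in KO under vehicle (-0.48 ± 0.12, adjusted p = 0.0265, edgeR) and higher with T3 in KO (0.42 ± 0.11, adjusted p = 0.0445), 2 comparisons that share the KO vehicle libraries. The former call held in 24 of 32 alternatives and the latter in only 9, and in 2 of 22 fits that left out a library. Selenop, the secreted selenium carrier, rose by 0.44 ± 0.11 with T3 in KO and Txnrd3, another thioredoxin reductase, was higher by 0.36 ± 0.10 in KO than in WT under T3, calls that held in 16 and 21 of 32 alternatives. Over the 19 the medians with T3 were 0.19 in WT and 0.05 in KO, and between genotypes -0.05 under vehicle and -0.06 under T3.

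Dio3 lies at the end of the imprinted Dlk1-Dio3 domain of chromosome 12, where Rian, Meg3 and Mirg were called between genotypes and not with T3. In that domain the paternal copy makes the proteins Dlk1, Rtl1 and Dio3, and the maternal copy makes the noncoding RNAs Meg3, Rian and Mirg. Of 7 further genes, 5 were tested. Dlk1 and Rtl1 were not, with group means of at most 0.141 and 0.114 CPM. Their median log2 fold change with T3 was -0.02 in WT, with 1 gene called higher, and -0.16 in KO, with 0. Between genotypes it was 0.86 under vehicle and 1.46 under T3, with 2 genes called higher in each and 0 lower in any comparison.

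Rian, a noncoding host of small nucleolar RNAs 617 kb from Dio3, was at 0.928 to 1.73 CPM in WT vehicle and 2.93 to 7.70 in KO vehicle. Under T3 it was at 0.782 to 2.24 CPM in WT and 2.69 to 9.37 in KO. The genotypes did not overlap under either treatment. Rian was higher in KO by 1.82 ± 0.36 under vehicle (adjusted p = 0.00509, edgeR) and 2.06 ± 0.31 under T3 (adjusted p = 0.000154), and both calls held in 32 of 32 alternative analyses. With T3 it differed by -0.02 ± 0.34 in WT and 0.22 ± 0.32 in KO. Meg3, 707 kb from Dio3, was higher in KO by 1.46 ± 0.29 under T3 (means 0.729 and 2.07 CPM, adjusted p = 0.00276, edgeR) and by 0.86 ± 0.33 under vehicle (1.27 and 2.33 CPM, adjusted p = 0.199). Mirg, 530 kb away, had 0 to 3 counts in the WT vehicle libraries and 4 to 12 in KO vehicle, a difference of 3.13 ± 0.86 (adjusted p = 0.0456, edgeR) that was called in 17 of 29 alternatives. Mirg passed the filter on low counts only through KO libraries, the genotype in which it was then called higher.

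Dio3os, the noncoding gene that lies 1.00 kb upstream of Dio3 on the other strand, was the neighbour that rose with T3. It had 0, 0, 3, 5 and 4 counts in WT vehicle and 3 to 29 in WT T3. Like Dio3, it passed the filter on low counts only through T3 libraries. The rise was 2.47 ± 0.63 in WT (means 0.0706 and 0.437 CPM, adjusted p = 0.0278, edgeR), although WT T3 replicate 1, at 0.0843 CPM, lay within the vehicle range. That call held in 25 of 31 alternatives and was lost without WT vehicle replicate 1, 2 or 3 or WT T3 replicate 4 or 5. In KO it was 1.39 ± 0.67 (means 0.0971 and 0.267 CPM, adjusted p = 0.356) and was not called. The 2 responses of Dio3os differed by -1.07 ± 0.96 with an adjusted p of 1.00 by edgeR, so a difference between genotypes was not shown. In GENCODE M21 the exons of Dio3 share 0 bases with any other gene, and the deposited spans of Dio3 and Dio3os lie 1.00 kb apart. By these models neither count includes reads of the other by overlap, though the annotation release used for counting is not given.

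**Figure D5:**
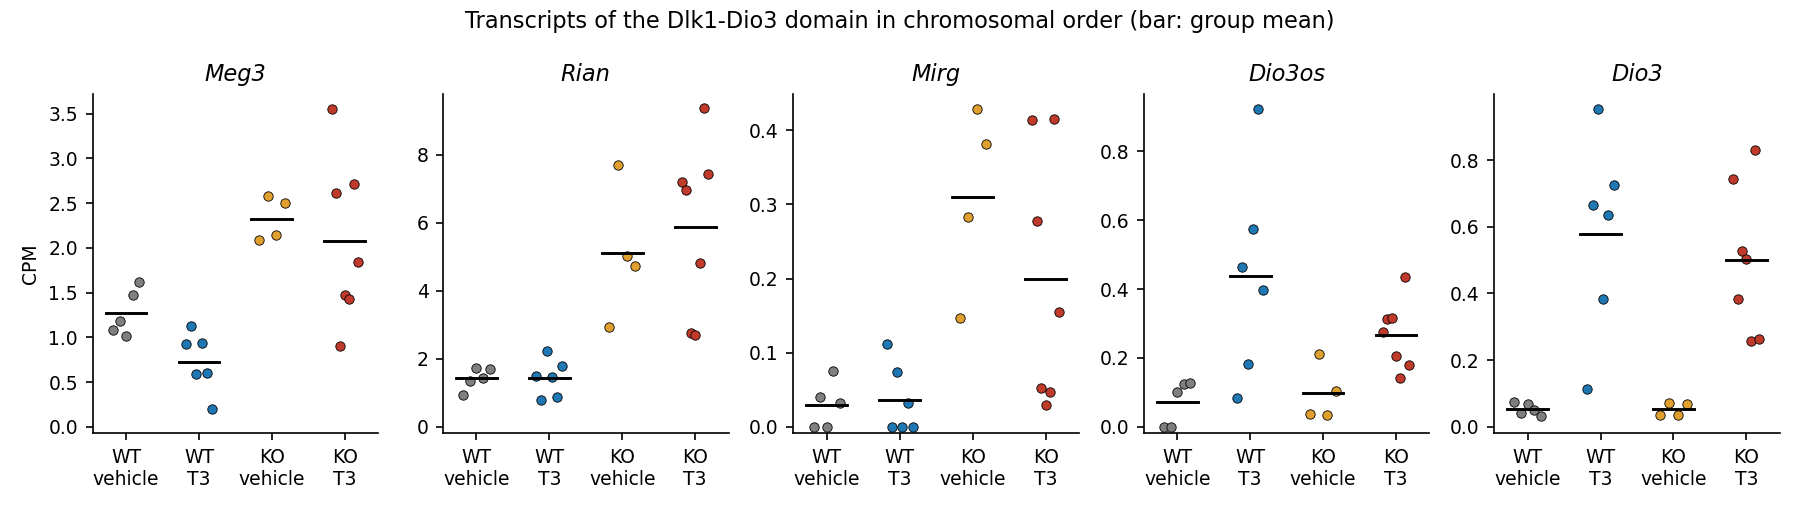
CPM of 5 transcripts of the Dlk1-Dio3 domain in each library, in chromosomal order from Meg3 to Dio3, with bars at the group means and a linear axis for each panel. Rian is separated by genotype under each treatment, and Dio3 is separated by T3 in each genotype.

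Amino acid handling was followed because 3 of the members are amino acid carriers. Of 12 other neutral and large amino acid transporters, 0 were called for T3 in WT and 0 for KO under vehicle. Slc7a6, a light chain of the same family, rose with T3 in KO by 0.60 ± 0.14 (8.03 and 12.2 CPM, adjusted p = 0.0209, edgeR), a call kept in 23 of 32 alternatives. The cationic carrier Slc7a1 was higher in KO under T3 by 0.65 ± 0.15 (9.46 and 14.9 CPM, adjusted p = 0.00763), and the glutamine carrier Slc38a2 was lower by a log2 difference of -0.76 ± 0.21 (211 and 124 CPM, adjusted p = 0.0341), the latter in 21 of 32 alternatives. The list medians were -0.13, 0.13, 0.18 and 0.16 in the order used above. Of 10 genes of the ATF4 response to amino acid shortage, Mthfd2, a mitochondrial folate enzyme, rose with T3 by 0.61 ± 0.13 in WT and 0.72 ± 0.14 in KO (adjusted p = 0.0113 and 0.00584, edgeR). Psat1, of serine synthesis, was higher in KO under vehicle by 1.01 ± 0.28 (7.69 and 15.5 CPM, adjusted p = 0.0467). That call held in 8 of 22 fits that left out a library, and without KO vehicle replicate 3 the difference was 0.59 with an adjusted p of 0.335 by edgeR. The medians of these 10 were 0.18, 0.05, -0.05 and 0.12.

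The genes whose levels ran most closely with each member over the 22 libraries were read from Pearson's r of log2 CPM among genes averaging 5 CPM or more, and r is given as a description with no test, since libraries of 1 group share treatment and genotype. As these genes were picked by r over the same libraries, calls like those of the member follow in part from the choice. For Dio3 they were the lysosomal peptidase gene Dpp7 (r = 0.86), Ccdc9b and Klhl33 (each 0.84), and the cold-induced gene Rbm3 ran opposite (-0.84). Dpp7, Ccdc9b and Klhl33 were called higher and Rbm3 lower with T3 in each genotype, and once the group means were removed r fell to between 0.21 and 0.28 for the former and -0.22 for Rbm3. Dio2 ran with Emc2 (0.79), Pmpcb (0.78) and Atp6v1c1 (0.77) and against Foxo4 (-0.82), a pattern within groups, since r with Emc2 was 0.79 with the group means removed as well. Slc16a10 ran with Smtnl2 (0.85), Myoz1 (0.83) and the lactate exporter Slc16a3 (0.82), and against Myl2 (-0.74), the slow regulatory myosin light chain, or 0.84, 0.73, 0.77 and -0.66 within groups. Myoz1, a Z-disc protein of fast fibres, was lower in KO under T3 (-0.96 ± 0.27, adjusted p = 0.0336, edgeR).

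Slc7a8 ran with the glycolytic regulator Pfkfb4 (0.82), Cyp27a1 (0.80) and the phosphatidate phosphatase gene Lpin1 (0.80), and against Micu2 (-0.79), or 0.66, 0.76, 0.62 and -0.60 with the group means removed. Pfkfb4 and Lpin1 had the calls of Slc7a8, lower in KO under vehicle (-1.24 ± 0.24 and -0.81 ± 0.20) and higher with T3 in KO (0.86 ± 0.23 and 0.86 ± 0.19), and Pfkfb4 was also called lower in KO under T3 (-0.71 ± 0.19). The shared calls follow in part from choosing both genes by their r with Slc7a8. Slc7a5 ran with Aldh7a1 (0.85), Brd9 (0.84) and Colq (0.80), the collagen tail of acetylcholinesterase, and against Rngtt (-0.79). With the group means removed these were 0.62, 0.75, 0.44 and -0.61. Colq was called in all 4 comparisons, higher in KO and lower with T3. Crym ran with Ctf1 (0.90), Aldh4a1 (0.87) and Dtd1 (0.85) and against Plekha1 (-0.88), or 0.82, 0.81, 0.80 and -0.79 within groups. Among the members themselves the highest r was that of Slc16a10 with Slc7a8 (0.62), followed by Slc7a5 with Crym (0.52).

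Promoter sequence was looked at because T3 acts through receptors that bind AGGTCA motifs. RefSeq promoters of GRCm38.p6, windows of 300 bases that span the start, were held for Dio2, Dio3, Slc16a10 and Slc7a8. On both strands, AGGTCA stood in 16.3% of 32851 promoters, the E-box CACGTG in 7.15%, TGACG, part of the cAMP response element, in 20.8%, and AGGTCA repeated on 1 strand with 4 bases between the copies in 0.0152%. Of the 4 promoters, only that of Dio2 held any of these letters: TGACG on each strand, overlapping in 1 palindrome at -95 to -88 from the start. The other 3 windows, that of Dio3 included, held none, which says only that these letters are not in these windows. The Dio2 stretch at chr12:90739090-90739169, minus strand, lies upstream of the gene end in the deposited table (90738438) and is printed with the palindrome in capitals.
Dio2 promoter: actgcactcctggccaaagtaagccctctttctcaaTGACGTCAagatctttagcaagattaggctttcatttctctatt

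On mm10, the deposited gene models place Dio2 at chr12:90724552-90738438 (minus strand) and Dio3 at chr12:110279068-110280708 (plus). The deposited length of Dio3, 2030 bases, is longer than that span and equals the exonic length in GENCODE M21, which ends the gene at 110281097. Slc16a10 is at chr10:40033532-40142254, Slc7a5 at chr8:121881150-121907694, Slc7a8 at chr14:54722209-54781930 and Crym at chr7:120186380-120202111, all on the minus strand. GENCODE M21 lists all 6 as protein-coding genes, and the deposited lengths ran from 2030 bases (Dio3) to 7356 bases (Slc16a10).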

How the data were processed

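Poly-A RNA of soleus was sequenced in 22 libraries. The authors deposited raw counts per gene with gene coordinates and a length column. Per the submitters' processing notes, the tools were featureCounts 1.6.4, STAR 2.7.3a and edgeR 3.26.8 and the build was mm10, listed without roles or order. Which annotation release and strand setting were used is not given in the sources used here. Of 55487 gene IDs, 55394 matched a symbol in GENCODE M21.

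Groups came from the labels. In R 4.3.3 the filter filterByExpr of edgeR 4.0.16 (minimum count 10) left 15082 genes, which were scaled by TMM and fitted in 4 groups by the quasi-likelihood test of edgeR. P-values were adjusted by Benjamini and Hochberg's method over these genes. Log2 CPM for r used a prior count of 2. Labels give no batch or pairing.

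The members and lists were chosen with earlier results of these data known. Named are the 6 members, in each list the called genes (at most 4, smallest adjusted p first) or else the gene with the smallest adjusted p, and for each member the 3 most alike genes and the most opposite. A gene that this rule names is not reported here. Slc3a2, Dio1, Dlk1, Rtl1, fibre genes and the slow and fast split were added after values were seen.

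Tried as alternatives were scaling by total counts, upper quartile or RLE, no filter, at least 1 CPM in 4 libraries, DESeq2 1.42.0, limma 3.58.1 voom with quality weights, the compared groups only, 1 surrogate variable (sva 3.50.0), each library left out, and 5 T3 libraries left out. The steps were tested on simulated data.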

Additional observations from a re-analysis of the deposited data

Results flagged for a closer look

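Within each group the highest or lowest library of each of the 6 genes was set against the others, and in 4 of 24 groups it lay past Dixon's 95% limit. For independent, normally distributed values about 1 in 20 groups would pass that limit. The 24 checks used CPM on a linear scale for 6 genes in the same 22 libraries. Their number therefore cannot be judged against that rate. Slc16a10 was at 22.8 CPM in WT vehicle replicate 4, above the other 4 libraries of its group, and that library was also the highest for Slc7a8. Slc7a5 was at 7.08 CPM in WT vehicle replicate 3, above its group, and at 4.26 CPM in KO T3 replicate 5, below its group. Crym was at 4.23 CPM in WT T3 replicate 5, above the other 5 libraries. WT vehicle replicate 3 also had the highest summed Schwann cell markers, 405 CPM against at most 182 in the other libraries, and their part in the Slc7a5 level was not tested.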

How the results depend on the processing

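Of 949 member results under other settings, 884 kept direction and side of the threshold, 19 lost the call, 17 gained it and 29 changed sign, all in differences that were never called. Dio3 with T3 was called in 31 of 31 settings with a value in each genotype; the filter of 1 CPM in 4 libraries removed it, leaving 0 members called for T3 in WT and 1 for T3 in KO. For T3 in KO the count was 1 also with RLE scaling and without the 5 T3 libraries. Crym, not called in the main fit, was called for T3 in KO in 1 of 32 alternatives. For KO under vehicle voom called 3. For KO under T3 total counts, the stricter filter, DESeq2 and 1 surrogate variable each called 1, and voom 2. Leaving out single libraries gave 1 to 2 members for T3 in WT, 1 to 2 for T3 in KO, 0 to 1 for KO under vehicle and 0 to 2 for KO under T3. Sign changes by voom were Slc16a10 and Slc7a8 for T3 in WT (0.0504 and 0.0555), Dio2 for T3 in KO (-0.31), and Dio2 and Crym for the difference of responses (-0.38 and 0.0903). Total counts gave 0.0159 for Slc16a10, T3 in WT, and 1 surrogate variable -0.0041 for Dio2 in the difference of responses. Without the 5 T3 libraries Dio2 was -0.29 and -0.0412 for T3 in WT and KO, Slc7a8 0.22 for T3 in WT, and Crym 0.18 in the difference of responses. Leaving out single libraries gave, for T3 in WT, Dio2 -0.0068 to 0.30, Slc16a10 -0.11 to 0.20 and Slc7a8 -0.29 to 0.29. It gave Dio3 -0.11 to 0.18 for KO under vehicle and -0.44 to 0.0122 for KO under T3, and in the difference of responses Dio2 -0.0935 to 0.21 and Crym -0.40 to 0.17. The causes were not tested. Of 604 results of other named list genes, 475 kept their call and 129 lost it, and 0 changed sign; Txnrd1 for T3 in KO was called in 9 of 32 settings, Selenop in 16, Psat1 in 18 and Mirg in 17 of 29. Dio3 at 1 or 2 counts per vehicle library sets the precision of its responses, and with 4 KO vehicle libraries each one weighs on every comparison that uses them.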
